A study of Saccharomyces cerevisiae with 2 samples.

Results

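When RNA is purified through a tagged protein, some messenger RNA comes along without being bound to it, and a library from untagged cells records what that background is made of. The messenger RNAs described here are 66 of the 1723 protein-coding features with sense reads in such a control. They were chosen by the counts themselves: at least 10 sense reads in the untagged control and no sense read in the library of tagged Bud22. Genes for cytosolic ribosomal proteins (names starting RPL, RPS or RPP), Ty retrotransposon frames and frames within or beside the ribosomal DNA (TAR1, YLR162W, RRT15 and YLR154 names) were left out, which removed 170 of the 1723 features and left 1553. The counts that chose the genes are given as a description, and no test is made on them.

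In CRAC, short for crosslinking and cDNA analysis, UV light joins RNA to an affinity-tagged protein inside living cells, and the RNA that stays on the denatured, purified protein is sequenced. Budding yeast carrying Bud22, a nucleolar factor for the small ribosomal subunit, with a His-TEV-protein A tag gave 1 library, and untagged W303 wild type gave the other. Both were grown in YPD to an OD600 of 1.0, kept for 4 h in SDC-URA medium containing 4-thiouracil, a photoreactive uracil analogue, and then exposed to UV of 365 nm for 30 min. The strain in which Bud22 was tagged is not named in the labels. The control is wild type by its genotype, source name and title, which were followed, although its growth description mentions the tagged cells. With 1 library per group no value has a replicate error, and all statements are about these libraries.

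The files give, for each feature, sense reads, antisense reads and a further number, taken from its values to be that of distinct read entries, so that copies of a read share an entry. The control held 132895 sense reads on 37130 entries over all named features, which is 3.58 reads per entry. Per the file headers 97270 of 296925 reads were mapped in the control and 188065 of 317922 with Bud22, so the feature counts sum to more than the mapped reads and a read can count at more than 1 feature. The Bud22 library held 215982 sense reads on 5920 entries, or 36.5 reads per entry. Reads were not divided by gene length, so the number of reads does not say how the level of a gene compared with that of another. Nor does it give exactly how much of the background a gene made up, since reads can be copies or count at several features. The 95% intervals below are exact (Clopper-Pearson) and treat every count as independent, with no error between libraries. Copies of a molecule are not independent, so the intervals on reads are too narrow.

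Which messenger RNAs are carried into a purification depends in general on how abundant and how long they are and on what they stick to. In growing yeast much of the messenger RNA encodes ribosomal proteins, glycolytic enzymes, translation factors and chaperones. In bulk libraries a more abundant messenger RNA and one that is retained more strongly cannot be told apart.

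The 66 genes held 1615 reads on 565 entries. This was 25.7% (24.6 to 26.8) of the 6284 control reads of the 1553 messenger RNAs, and 19.2% (17.8 to 20.7) of their 2936 entries. Over all named features, ribosomal and transfer RNA included, it was 1.22% of reads (1.16 to 1.28). The median gene had 15.5 reads on 6.50 entries, against 2 reads on 1 entry over the 1553. The counts were uneven: 15 genes held 50% of the reads, 18 genes had at least 30 reads, and 30 genes had 10 to 13.

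The absence from the Bud22 library is how the genes were picked, and the share of other messenger RNAs that were absent is given for scale. Of the 79 messenger RNAs with at least 10 control reads, 66 had none with Bud22, or 83.5%. Of the 1474 with 1 to 9 control reads, 97.4% had none. At the minimum itself, 9 genes with 10 reads were inside: DSK2, EFB1, HXT3, NCP1, PEP4, PIN4, PRI1, TIF1 and TIF2. Just outside, at 9 reads, were CHC1, DUG2, HIS4, NTC20, PAB1, RPT6, SAH1, SEC7, TSA1, URA2 and YPT31, and none of these 11 had a Bud22 read. None of the 66 had an antisense read in the control or a line of its own in the Bud22 file. Antisense reads in the control were rare in general, at 69 of the 1553 messenger RNAs (4.44%), a share at which few of 66 genes would have any.

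Of the function lists used here, those of chaperones, glycolytic enzymes and translation factors were the largest among the 66 genes. Together these 3 lists held 21 of the 66 genes, 35.6% of their reads (33.3 to 38) and 40.4% of their entries. These shares cover only genes picked for high counts. Over all 98 genes of the 3 lists seen in the control, with no minimum and whether or not Bud22 reads were present, the lists held 1013 reads on 441 entries, 16.1% of the control messenger RNA reads. On that wider count translation factors led with 383 reads on 171 entries, glycolysis had 343 on 139 and chaperones had 287 on 131. TEF1 (57 reads) and TEF2 (59), close copies of each other, both count toward that lead. The order of the lists with close copies counted once was not worked out. As background for every list, 4.25% of the 1553 messenger RNAs were among the 66. Of 18 lists 10 had a member, and 37 of the 66 genes were in a list. The lists are not complete, so a gene outside them can share a listed function. SEC14 (72 reads), VMA7 (65), TRS31 (44), USE1 (21), HAC1 (21) and GCD6 (13) are in no list. Their roles, given below, are close to those of secretory, vacuolar, transcription or translation lists. The order of the lists and the share in no list thus depend on how the lists were drawn.

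**Figure D1:**
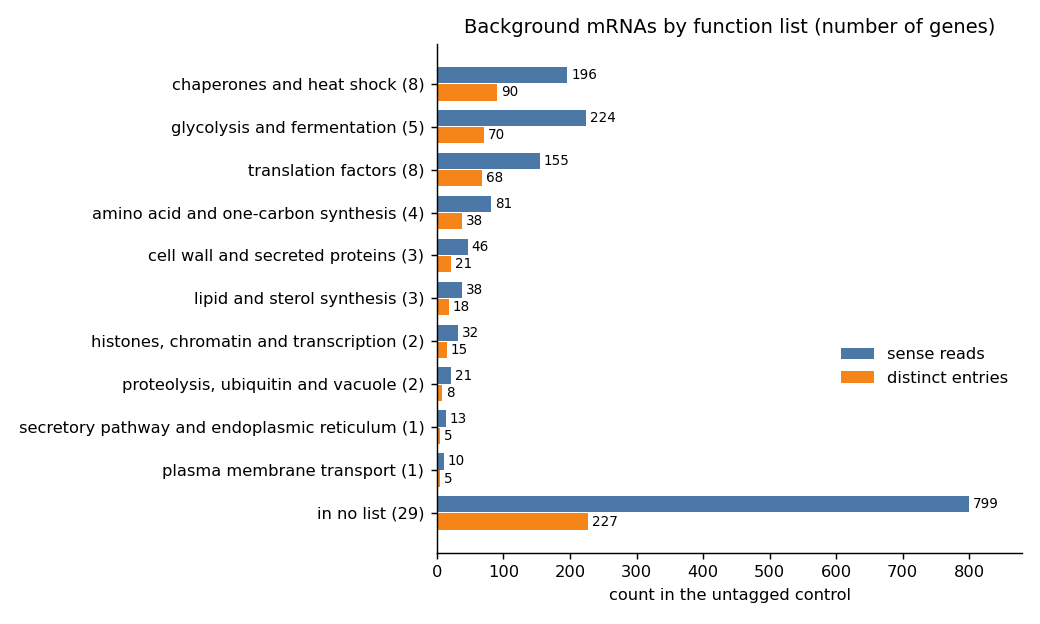
Sense reads and distinct entries in the untagged control for the background mRNAs of each function list, with the number of genes in brackets. Glycolysis leads by reads (224), chaperones lead by entries (90), and the 29 genes in no list hold 799 reads on 227 entries. Close gene copies are each counted, and the order with copies counted once is not shown.

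Chaperones, which fold new and stress-damaged proteins, made up 8 of the 66 genes, with 196 reads on 90 entries. That is 12.1% of the reads (10.6 to 13.8) and 15.9% of the entries. They were 8 of the 35 list members seen in the control (22.9%), and the list's median over those 35 was 4 reads. No list member with at least 10 control reads had reads with Bud22.

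Most of this came from the cytosolic Hsp70 and Hsp90 genes, which held 170 reads on 81 entries in 6 genes. SSB1 and SSB2 encode the Hsp70s that sit on ribosomes and meet nascent chains. SSB1 had 37 control reads on 16 entries and SSB2 had 24 on 12. SSA1 and SSA2, the general cytosolic Hsp70s, had 32 reads on 14 entries and 26 on 16. The Hsp90 genes HSC82, expressed constitutively, and HSP82, induced by heat, had 30 on 14 and 21 on 9. All 6 genes had 1.62 to 2.33 reads per entry, so none of them rested on a few heavily copied reads. The heat-inducible Hsp70 gene SSA3 had 1 read and SSA4 had 0, far under the minimum.

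The other chaperones were mitochondrial. HSP60, the chaperonin of the matrix, had 15 reads on 5 entries, and HSP78, a matrix disaggregase, had 11 on 4. The list members with 6 to 8 reads were BTN2 (8 reads on 1 entry), the cochaperones SBA1 (8 on 2) and STI1 (7 on 2), the disaggregase HSP104 (7 on 3), the chaperonin subunit CCT5 (6 on 4) and the Hsp110 gene SSE1 (6 on 2). KAR2, the Hsp70 of the endoplasmic reticulum, had 3 reads on 2 entries. Each of these 7 was also without reads in the Bud22 library.

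Among the 66, glycolytic genes held the most reads of any list, 224 on 70 entries in 5 genes, and one of them held many reads on few entries. CDC19, pyruvate kinase, had the most reads of all 66 genes, 99, on only 9 entries, or 11.0 reads per entry. TDH3, the main glyceraldehyde-3-phosphate dehydrogenase, had 53 reads on 27 entries, the most entries of any of the 66. Without CDC19 the list held 125 reads on 61 entries.

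The remaining glycolytic members followed TDH3 in their ratio of reads to entries. TDH2, a second gene for the same dehydrogenase, had 32 reads on 13 entries. FBA1, the aldolase, had 21 on 11, and PGK1, phosphoglycerate kinase, had 19 on 10. These 5 were 19.2% of the 26 list members seen in the control, where the list's median was 4 reads. The list's share of the reads of the 66 genes was 13.9% (12.2 to 15.7), and of their entries 12.4%.

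Other steps of the pathway were seen at lower counts or had Bud22 reads. The enolase genes ENO2 and ENO1 passed the control minimum with 37 and 15 reads. Each had 33 Bud22 reads on 1 entry, which kept it out of the set. Whether this was the same entry at both genes was not tested. The third dehydrogenase gene TDH1 had 7 reads on 4 entries. PDC1, pyruvate decarboxylase, had 8 on 4, and PFK2, a phosphofructokinase subunit, had 8 on 4. GPM1 and TPI1, phosphoglycerate mutase and triosephosphate isomerase, had 6 on 5 each. ADH1, the main alcohol dehydrogenase, had 3 reads on 2 entries.

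Translation factors made up 8 genes with 155 reads on 68 entries, mostly factors of elongation. EFT1 and EFT2, which encode the same elongation factor 2, had 38 reads on 15 entries and 34 on 13. YEF3, the fungal elongation factor 3, had 24 on 11. TEF4, a gamma subunit of the elongation factor 1 complex, had 16 on 8, beside 12 reads on the snoRNA SNR38 within it, and EFB1, the exchange factor subunit of that complex, had 10 on 7. HYP2, the hypusine-containing factor eIF5A, had 13 reads on 8 entries. The initiation helicase eIF4A, encoded by TIF1 and TIF2, had 10 reads on 3 entries at each gene.

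The genes of elongation factor 1 alpha itself were not among the 66. TEF1 had 57 control reads and TEF2 had 59, on 24 entries each, and both had 151 Bud22 reads on 4 entries. The 8 members were 21.6% of the 37 translation factors seen in the control, whose median was 5 reads. Examples below the minimum were PAB1, the poly(A)-binding protein (9 reads on 3 entries), TIF34, an eIF3 subunit (8 on 4), and SUP35, a release factor (7 on 5).

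Several of these genes are close copies of each other, and a read matching more than 1 copy may count at each. TIF1 and TIF2 encode the same protein and had equal counts, as TEF1 and TEF2 nearly did. EFT1 and EFT2 also encode the same protein and differed in both counts. The SSA, SSB, TDH and Hsp90 pairs are less alike and had counts of their own. Counting each such family once, as the copy with most reads, left 60 of the 66 genes, and the share of their reads in the 3 main lists was then 29.2%.

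All 4 members of the amino acid list belong to branched-chain amino acid synthesis, which yields isoleucine, valine and leucine. ILV5, the reductoisomerase of the pathway, had 34 reads on 16 entries. ILV6, the regulatory subunit of acetolactate synthase, had 22 on 10. LEU1, isopropylmalate isomerase, had 13 on 6, and BAT1, the mitochondrial branched-chain aminotransferase, had 12 on 6. Together they held 81 reads on 38 entries, 5.02% of the reads of the 66 genes (4 to 6.2), with 2.00 to 2.20 reads per entry.

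The branched-chain grouping was made after these values were seen. Of 11 genes of that branch 8 had control reads and 4 were in the set. ILV3, the dehydratase, had 7 reads and LEU4, an isopropylmalate synthase gene, had 5. ILV2 and LEU2 had 1 read each, and ILV1, LEU9 and BAT2 had 0. The amino acid list as a whole had 53 of its 106 genes in the control with a median of 3 reads, and its 4 members were 7.55% of those 53. GDH1, glutamate dehydrogenase, also reached the minimum with 10 control reads, and had 27 Bud22 reads on 1 entry. GCN4, the transcriptional activator of amino acid synthesis genes, which stood in the chromatin and transcription list, had 21 reads on 11 entries.

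The listed genes of the cell surface, lipids and the secretory route gave smaller counts. CCW12, an abundant mannoprotein of the cell wall, had 23 reads on 10 entries. SED1, another cell wall protein, had 12 on 6, and BGL2, a wall glucanosyltransferase, had 11 on 5. These 3 were 11.5% of the 26 cell wall genes seen. In the lipid list PDR16, a phosphatidylinositol transfer protein, had 17 reads on 9 entries.

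Sterol synthesis added ERG13, the synthase of hydroxymethylglutaryl-CoA, with 11 reads on 5 entries, and NCP1, the cytochrome P450 reductase, with 10 on 4. The lipid members were 13% of the 23 lipid genes seen. SEC61, the channel of the endoplasmic reticulum, had 13 reads on 5 entries, and HXT3, a low-affinity glucose transporter, had 10 on 5. The plasma membrane proton pump PMA1 had 1 read in the control. Beyond these, RPA135, a large subunit of RNA polymerase I, had 11 reads on 4 entries, RPT4, a proteasome ATPase, had 11 on 5, and PEP4, the vacuolar protease A, had 10 on 3.

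Of the 18 lists 8 had no gene among the 66. They were the aminoacyl-tRNA synthetases (15 seen in the control, median 5 reads), redox and stress defence (8 seen, median 4) and nucleotide synthesis (21 seen, median 2). Nuclear genes of respiration (38 seen), mitochondrially encoded genes (9 seen), ribosome biogenesis (50 seen), RNA binding (23 seen), and cytoskeleton and signalling (31 seen) were the others. Having no gene among the 66 follows from the minimum, the Bud22 counts and which genes the lists hold. It does not mean that these functions were missing from the background. GRX5, a mitochondrial glutaredoxin with 11 reads, was among the 66 but in no list. The 8 lists held 625 control reads on 356 entries over 195 genes, 9.95% of the control messenger RNA reads. Ribosome biogenesis alone had 152 reads (2.42%), against 113 for all cell wall genes seen. The highest counts in these lists short of the minimum were 9 reads for the peroxiredoxin gene TSA1 and 9 for URA2, which starts pyrimidine synthesis. UTP6, a small subunit processome protein, reached the minimum with 14 reads and had 12 Bud22 reads. IMD4, an IMP dehydrogenase gene, had 11 control reads and 24 Bud22 reads on 1 entry, and SNR54, the snoRNA that overlaps it, had the same Bud22 counts but 3 control reads.

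The 29 genes in no list held 49.5% of the reads (47.0 to 51.9) and 40.2% of the entries, and they differed widely in how many entries stood behind their reads. Their roles are given from general knowledge, and they were named after their values were seen. URM1, a ubiquitin-related modifier that also serves as sulfur carrier in tRNA thiolation, had 91 reads on 21 entries, second by reads and level with YNL042W-B and YOL013W-A as second by entries. YHR145C had 35 reads on 15 entries, but it is not in the reference gene table, so its neighbours and overlaps could not be checked. HAC1, the transcription factor of the unfolded protein response, had 21 reads on 8 entries. YFL032W, whose systematic number adjoins that of HAC1 (YFL031W), had 14 on 5, and whether these are some of the HAC1 reads was not tested.

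Further genes with 4 to 9 entries were spread over many processes. YDR524C-B had 23 reads on 9 entries, DAD2, a DASH kinetochore subunit, had 14 on 8, and YPR036W-A had 13 on 6. MTC7 had 12 reads on 8 entries beside 13 on 8 at HYP2, its neighbour in the reference gene table. GCD6, the catalytic subunit of eIF2B, had 13 on 5, and KCS1, an inositol hexakisphosphate kinase, had 13 on 4. MAS1, a subunit of the mitochondrial processing peptidase, had 11 on 4. PIN4 had 10 reads on 5 entries, and DSK2, a ubiquitin-binding shuttle protein, and PRI1, the catalytic subunit of DNA primase, had 10 on 4 each.

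A group of 12 genes reached the minimum on 3 or fewer entries. VMA7, a subunit of the vacuolar proton pump, had 65 reads on 1 entry. SEC14, the phosphatidylinositol transfer protein of the Golgi, had 72 reads on 2 entries, and SCM4 had 80 on 2. These 3 genes ranked 3 to 5 by reads and were among the 6 genes with 1 or 2 entries. They held 13.4% of the reads on 0.885% of the entries.

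The rest of this group had 10 to 24 reads. ATR1, a multidrug efflux transporter, had 24 reads on 3 entries, and SEN54, a subunit of the tRNA splicing endonuclease, had 12 on 3. PDX3, which makes pyridoxal phosphate, had 11 on 3. RDH54, a DNA translocase of recombination, GRX5, a mitochondrial glutaredoxin, and MRP4, a mitochondrial ribosomal protein, had 11 reads on 2 entries each. TIF1, TIF2 and PEP4, described above with their lists, had 10 on 3. The 12 genes together held 20.2% of the reads (18.3 to 22.3) and 5.13% of the entries.

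**Figure D2:**
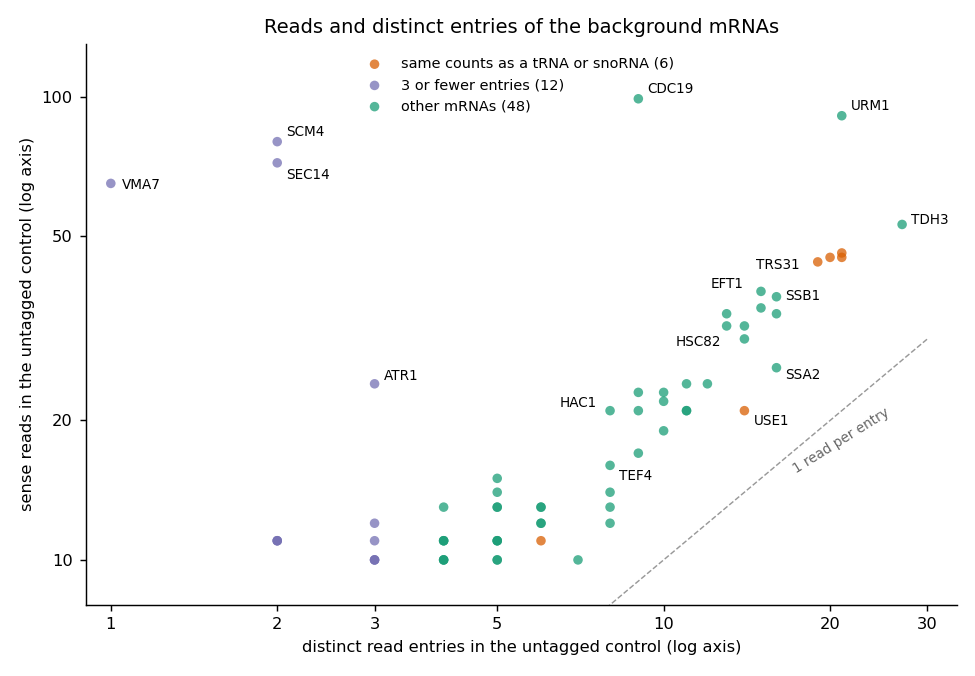
Sense reads against distinct entries in the untagged control for each of the 66 background mRNAs, both axes logarithmic, with the dashed line at 1 read per entry. Most genes lie in a band near 2 reads per entry (median 2.31), while CDC19, SCM4, SEC14 and VMA7 lie above it at 11.0 to 65.0.

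Across the 66 genes 50 had under 3 reads per entry, and the set as a whole had 2.86. All 1553 messenger RNAs had 2.14, and the 13 of the same minimum with Bud22 reads had 3.08. More than 10 reads per entry occurred at 4 of the 1553 messenger RNAs (CDC19, SCM4, SEC14 and VMA7). Any such gene passes the minimum of 10 reads, so the presence of all 4 in the set follows largely from the rule. Reads and entries ranked the 66 genes only partly alike (Spearman's rho 0.63 over genes of 1 library, a description), and 6 genes were among the first 10 by both counts. A minimum of 10 entries in place of 10 reads kept 23 genes.

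Another 6 genes had exactly the sense reads and entries of a transfer RNA or snoRNA feature of their own chromosome, so it cannot be told apart whether their reads came from a messenger RNA. TRS31, a subunit of the TRAPP vesicle tethering complex, had 44 reads on 19 entries, and so did its neighbour SNR13, a box C/D snoRNA. USE1, a SNARE of retrograde transport, had 21 reads on 14 entries, equal to its neighbour SNR82, a box H/ACA snoRNA. The frame YOR072W-B had 45 on 20, the counts of the proline tRNA gene SUF11 that overlaps it.

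For YNL042W-B and YOL013W-A the matching features were also proline tRNA genes. YNL042W-B, which overlaps a tRNA gene in the reference table, had 46 reads on 21 entries, as did tP(UGG)N1 and tP(UGG)N2. YOL013W-A had 45 on 21, as did tP(UGG)O1. Of 10 proline tRNA genes of this anticodon, 9 had 45 to 47 reads and tP(UGG)O3 had 22. Whether the 3 frames count the same reads 3 times was not tested. YPR108W-A had 11 reads on 6 entries, equal to tT(UGU)P, a threonine tRNA gene.

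All 7 of the matched transfer RNA and snoRNA features were, like the 6 genes, without sense reads in the Bud22 library. Equal values also occurred between unrelated genes at 10 or 11 reads, where ERG13, HXT3 and PIN4 had the counts of another protein-coding feature of their chromosome (IMD4, RPL4B and RPL4A). The 6 genes held 13.1% of the reads (11.5 to 14.9) and 17.9% of the entries. Without them the 3 main function lists held 41.0% of the reads. A further pair of genes hosts a snoRNA in an intron: SNR38 had 12 reads against 16 at TEF4 (75%), and SNR18 had 3 against 10 at EFB1 (30.0%). Both host genes stayed in the 41.0%, and whether some of their reads came from the snoRNA was not tested.

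**Figure D3:**
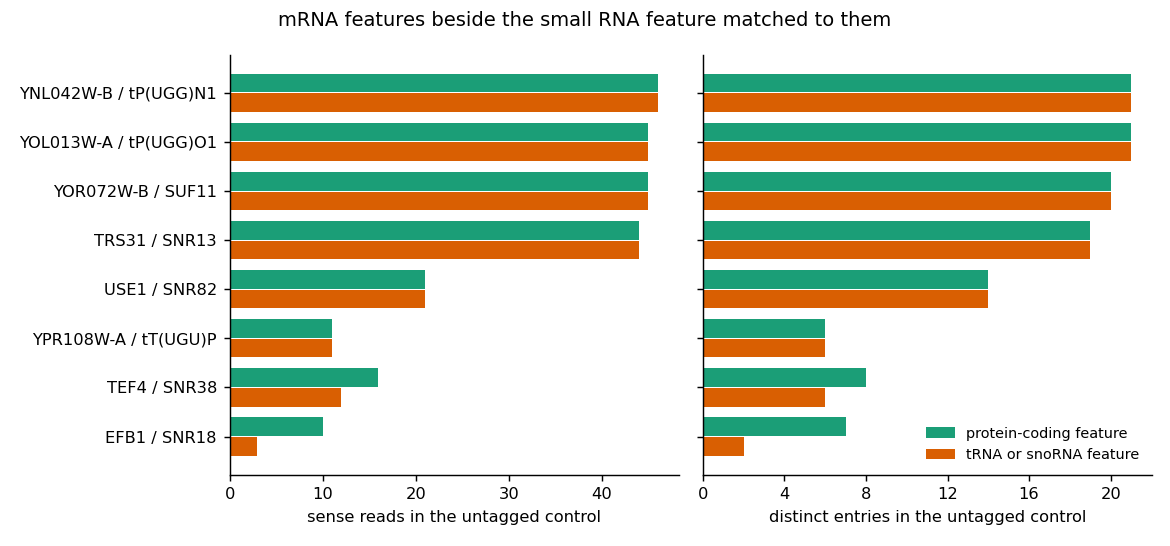
Sense reads (left) and distinct entries (right) in the untagged control for 8 protein-coding features and the tRNA or snoRNA feature matched to each. The first 6 pairs are equal in both counts, while SNR38 and SNR18 have lower counts than their host genes TEF4 and EFB1.

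Some counts recurred on the opposite strand of another feature. The features YAL037C-B, YGR050C, YCR013C and RSC9 had antisense reads and entries equal to the sense counts of CDC19, SCM4, PGK1 and ERG13, at 99, 80, 19 and 11 reads, and no sense reads. YGR050C and RSC9 are neighbours of SCM4 and ERG13 in the reference table. YAL037C-B and YCR013C were not found beside their partners there, which does not show that they lie elsewhere. Whether they overlap their partners was not tested.

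The 13 messenger RNAs that reached 10 control reads but had Bud22 reads contained such features too. For 5 of them, KAE1, YJL047C-A, YDR278C, YDR445C and YGL088W, the control reads and entries equalled those of a tRNA or snoRNA of the same chromosome, and so did the Bud22 reads. YJL047C-A followed SNR60 with 298 control and 17 Bud22 reads, and KAE1 followed tD(GUC)K with 98 and 39. The others were TEF1, TEF2, ENO1, ENO2, IMD4, GDH1 and UTP6, described above, and PET10, a lipid droplet protein, with 18 control reads on 8 entries and 33 Bud22 reads on 8. Set beside the 66, function lists held 7 of these 13.

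How much the 0 in the Bud22 library says was limited by its 5920 entries. A count of 0 allows up to 3 entries, or 0.0507% of the total, and only genes with at least 19 control entries exceeded that share. They were 6 of the 66: TDH3, URM1, YNL042W-B, YOL013W-A, YOR072W-B and TRS31. Over all control messenger RNAs without Bud22 reads, the same 6 made up 0.399%. Of these 6, 4 carried the counts of a transfer RNA or snoRNA, and the others were TDH3 and URM1. Measured against the protein-coding totals in place of all named features, 0 of the 66 exceeded the limit, TDH3 and URM1 included.

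At an equal share of entries in both libraries, TDH3 would have 4.30 entries with Bud22 and URM1 3.35. For the median gene of the 66 the figure was 1.04, and 33 of the 66 would have under 1 entry. These figures are no test of a lower share with Bud22, because the same counts chose the genes. For most of the 66 genes the depth was too low to tell a lower share from an equal one. TDH3 and URM1 exceeded the limit with all named features but not with the protein-coding totals. With all named features, an exact 95% upper bound on the ratio of shares was below 1 for TDH3 only, and not for URM1. Reads gave no firmer limit, since 1 Bud22 entry held 36.5 reads on average.

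**Figure D4:**
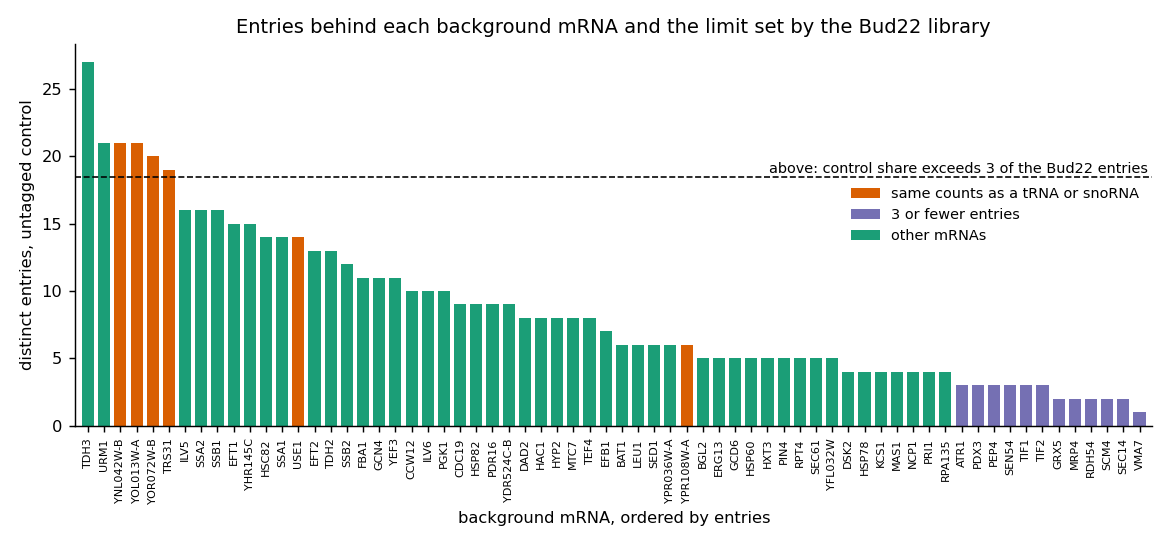
Distinct entries in the untagged control for the 66 background mRNAs in falling order, with colours for the kind of support and the dashed line above which the control share exceeds 3 of the Bud22 entries. Only the first 6 bars, from TDH3 with 27 entries to TRS31 with 19, reach above the line, and 4 of them are features with the counts of a tRNA or snoRNA.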

How the data were processed

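The deposited files hold whole-number counts per feature (sense reads, antisense reads and a number of reads), made by the authors with pyReadCounters of Counters 1.2.1, per the file headers. Neither the aligner and its settings nor the build and annotation behind the features were stated in the sources used. The third column, taken here as distinct read entries, is read so from its values and was capped at the sense count. Intergenic rows stayed out of the totals.

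Shares and exact Clopper-Pearson 95% intervals were computed with Python 3.11.15 and SciPy 1.17.1, and figures with Matplotlib 3.10.9. The selection was tested on simulated data. With 1 library per group there was no test across conditions. A count of 0 was set at a floor of 3 counts. Gene names were matched to the R64 RefSeq table for 62 of the 66 genes, and the table was used only for names, neighbours and overlaps. As the files' build is not stated, no gene length was used, so the planned reads per kb and the genes named by it are not given.

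The genes, the function lists and the settings were chosen with earlier results of these data known. Genes named with values were, by rule, the 15 with most reads, the 10 with most entries and the first 4 by reads of each list, with their paralogs and the messenger RNAs at the minimum or with Bud22 reads. The other genes were named after their values were seen. Alternatives changed the minimum, the strand, the denominator, and which overlapping, paralogous or thinly supported genes were kept.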

Additional observations from a re-analysis of the deposited data

How the results depend on the processing

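The 66 genes depended most on the minimum: 300 at 5 reads, 30 at 20 reads and 23 at 10 entries. The other 6 settings gave 54 to 78, the latter with both strands summed, which includes 8 features with no sense reads. Their share of the control messenger RNA reads, 25.7%, was 48.2% at 5 reads, 18.8% at 20 reads and 12.7% at 10 entries. It was 23.7% without 5 genes that overlap another gene, 24.1% without CDC19, 22.3% without the 6 genes with tRNA or snoRNA counts, 20.5% without genes on 3 or fewer entries and 23.4% with close paralogs counted once. Over all named features it was 1.22%, and 2.67% without ribosomal RNA. The share of their reads in the chaperone, glycolysis and translation lists, 35.6%, was 24.2% at 5 reads, 39.8% at 20 reads and 46.4% at 10 entries. It was 31.4% without CDC19, 41.0% without tRNA or snoRNA counts, 43.1% without genes on 3 or fewer entries and 29.2% with paralogs once. The number of genes whose control entries exceeded the limit of a 0 was 6. It was 4 without genes that overlap another gene, 2 without tRNA or snoRNA counts and 0 against the protein-coding totals. By an exact bound it was 1, which is no test because the same counts chose the genes. Reads per entry stayed between 2.28 and 3.09 under 9 alternatives. Over these results 26 values were labelled close and 23 moved, but the labels were not equally strict for each result. For example, 54 and 78 genes were labelled close to 66, while 24.1% was labelled moved from 25.7%. The settings on tRNA or snoRNA counts, on 3 or fewer entries and on paralogs were added after seeing the data, the last from a hand-written list because no protein table was used here. Reads per kb and its alternatives were not run. No paired analysis was possible because each group has 1 library, and no library could be left out.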
